A study of Canis lupus familiaris with 34 samples.

Results

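IRS4, IGFBP6 and GPC3 are 3 genes of the insulin-like growth factor (IGF) system, and they are described here across 34 RNA sequencing libraries of dog osteosarcoma, a malignant tumour of bone-forming cells. They are 3 of the 23988 gene rows of the deposited table and were chosen by name, with their values in these libraries in view. Their levels and differences are therefore given as descriptions, without a test. The libraries comprise 30 of primary bone tumours, 1 of a metastasis (DOS.6M), 2 of cultured osteosarcoma lines, OSCA.78 and OSCA.8, and 1 of an osteoblast culture (CNOB), all from total RNA and none with a stated treatment. Every library is labelled Golden Retriever, while the series text names Rottweilers as well, and it says that the lines came from earlier primary tumours. The sources used here state neither ages nor the organ that the metastasis grew in. The pair DOS.46 and DOS.46.2, titled with the same number, was averaged as 1 tumour, which leaves 29.

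IGF1 and IGF2 are growth factors that signal through the receptor kinase IGF1R, and IGF signalling drives the growth of bone. The activated receptor phosphorylates insulin receptor substrates, scaffold proteins that recruit PI3-kinase. IRS4 is the member of that family with the narrowest normal expression. A family of binding proteins holds IGFs outside the cell, and IGFBP6 is the one that prefers IGF2 to IGF1. GPC3 is a glypican, a heparan sulfate proteoglycan anchored in the cell membrane, which restrains growth in the embryo, binds hedgehog ligands and is known as an oncofetal protein of liver cancer.

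Values are FPKM, fragments scaled to transcript length and library size, a unit read from the submitters' tools because the table names none. Differences are on the log2(FPKM + 1) scale, which understates changes of low genes such as IRS4. Summed FPKM per library ran from 479100 to 1418000, and read depth is not stated. In these bulk samples a gene's level cannot be separated into the number of cells that express it and the RNA per cell. The cultures held little of the vessel genes. The 5 measured endothelial markers summed to 0.362 FPKM for OSCA.8, 0.420 for OSCA.78 and 1.08 for CNOB, against at least 79.2 in every primary tumour. CNOB held the bone matrix genes COL1A2 and SPARC at 5530 and 10510 FPKM and the osteoblast transcription factor SP7 at 24.7, while IBSP and SPP1, proteins of mineralised bone, stood at 6.95 and 4.38 FPKM, below the lowest tumour (48.6 and 47.4).

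**Figure D1:**
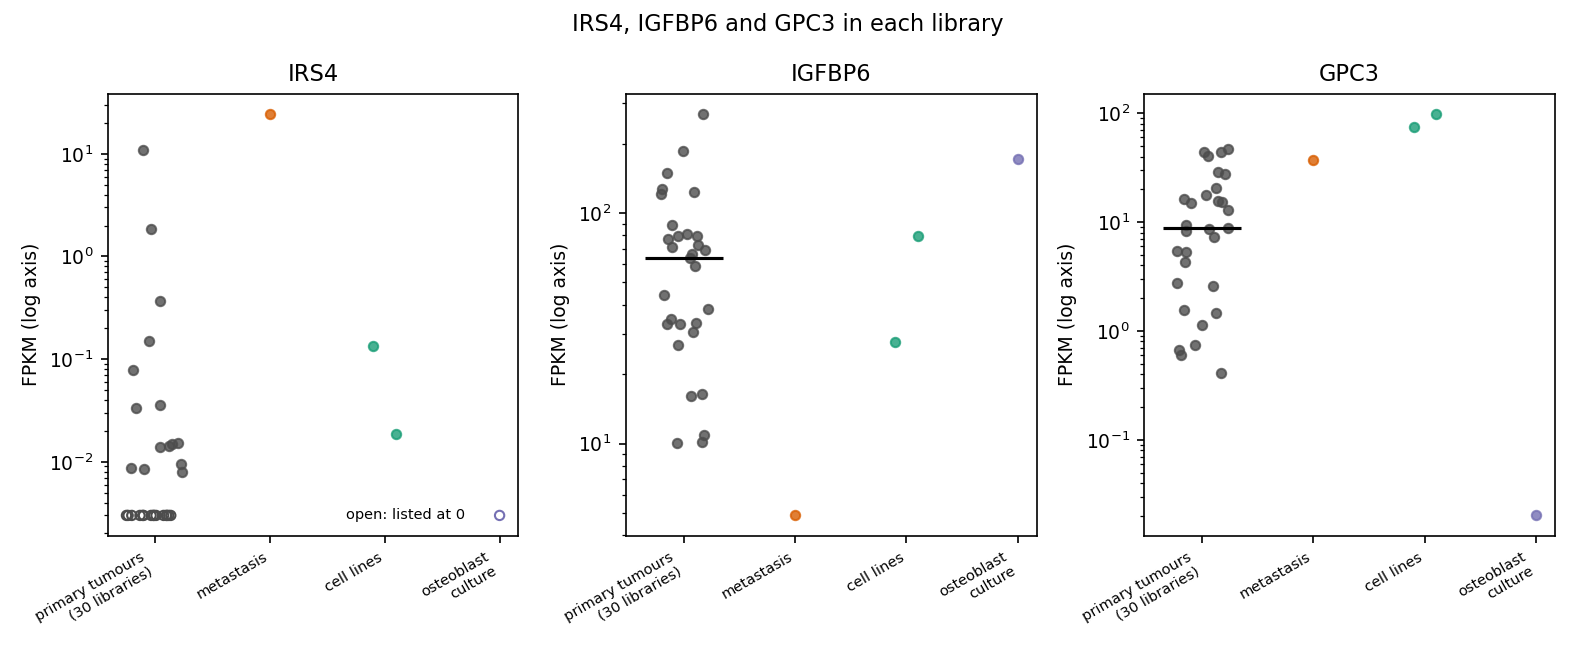
Level of IRS4, IGFBP6 and GPC3 in FPKM (log axes) in each of the 34 libraries by group, 1 point per library; the black line is the median of the 29 primary tumours and open circles are libraries listed at 0, drawn at a fixed low position. IRS4 stands out in DOS.6 (10.9) and DOS.6M (24.6), IGFBP6 is lowest in DOS.6M (4.89), and GPC3 is highest in both cell lines (74.7 and 99.4) and lowest in the osteoblast culture (0.0202).

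IRS4 was at or near 0 in most libraries and reached several FPKM in a pair of them. It stood at 24.6 FPKM in the metastasis DOS.6M and at 10.9 in the primary tumour DOS.6. The next libraries were the tumours DOS.111 at 1.85, DOS.11 at 0.372 and DOS.116 at 0.149, the line OSCA.78 at 0.133 and the tumour DOS.115 at 0.0789. All others were at 0.0361 FPKM or lower, and 16 of the 34 libraries, the osteoblast culture among them, were listed at 0. The line OSCA.8 was at 0.0187. DOS.6 thus lay 5.90-fold above the tumour next to it, and DOS.6M 2.26-fold above DOS.6. The groups overlapped, since both cell lines fell within the range of the tumours.

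The low IRS4 values could be read as single fragments. Ratios of low values between libraries gather at ratios of whole numbers, which gives the worth of 1 fragment in each library relative to DOS.46. If the 0.00952 FPKM of IRS4 in DOS.46 is taken as 1 fragment, 11 of the 11 other values below 10 fragments lay within 0.1 of a whole number. By this reading 11 libraries held 1 to 4 fragments of IRS4 and 7 held more. OSCA.8 held 3 fragments, OSCA.78 about 20, DOS.111 about 224 and DOS.6 about 1318. One fragment corresponded to between 0.00619 and 0.0167 FPKM, so a library listed at 0 allows up to 0.0244 FPKM at the median depth (3 fragments, counting error only). Levels among the libraries with 0 to 4 fragments cannot be ordered at this depth.

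Within its family, IRS4 came first in DOS.6 and DOS.6M and last in 28 of 29 tumours. IRS1, a main substrate of the IGF1 receptor in osteoblasts, was the highest of the 3 measured substrates in 26 of 29 tumours, and IRS2 in 2 of 29. The tumour median was 7.74 FPKM for IRS1 (range 2.197 to 17.9) and 1.35 for IRS2 (0.216 to 20.2). In DOS.6 IRS4 made up 61.5% of the summed FPKM of the 3 genes and in DOS.6M 74.1%, with IRS1 at 3.79 and 6.25 FPKM there. In DOS.111 its share was 21.8%, below IRS1 at 4.54 FPKM. Across the tumours the median share was 0.0245%. IRS1, with 10.02 FPKM in line OSCA.78 and 6.63 in line OSCA.8, did not pass the test between lines and tumours (limma log2 difference 0.11 ± 0.49 SE, adjusted p = 0.897), nor did IRS2 (0.29 ± 0.63 SE, adjusted p = 0.788). The osteoblast culture held IRS2 at 30.1 FPKM, above every tumour (highest 20.2), with IRS1 at 7.40. This position is on the deposited FPKM scale and was not checked under other scalings.

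DOS.6 and DOS.6M carry the same number in their titles, and the labels do not say whether they came from the same dog. Across the 15165 genes past the filter (at least 1 FPKM in at least 2 libraries), their deviations from the tumour mean correlated at r = 0.510, against 0.195 for the tumour next in likeness to DOS.6M. IRS4 shares its pattern with many genes. Of 297 genes highest in DOS.6 among the tumours, 124 were still higher in DOS.6M (41.8%), while DOS.6M exceeded every tumour for 5% of all genes. Marker lists were not extreme in DOS.6, where 4 to 23 of the 29 tumours had lower sums, depending on the list. In DOS.6M the bone matrix sum of 4377 FPKM lay below every tumour (lowest 6862) and the fibroblast sum of 118 FPKM was close to the lowest (113.3, median 1537). The part of these cells in the IRS4 level was not tested.

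Among the genes most like IRS4 across the 29 tumours were EGR4 (Pearson r = 0.850), OTX2 (0.793), EOMES (0.778) and C17ORF104 (0.774). EGR4 is an early growth response factor, OTX2 is a homeobox gene of the forebrain and eye, and EOMES is a T-box factor. These 4 peaked in DOS.6 among the tumours, between 1.39 and 4.18 FPKM, and all 4 were higher still in DOS.6M, at 11.8, 16.8, 2.91 and 5.01 FPKM in the order above. Without DOS.6 and DOS.111 the correlations were 0.37 for EGR4, 0.09 for EOMES and 0.04 for C17ORF104, which thus rest on those tumours. For OTX2 r was then 0.93, but among low levels. The highest IRS4 left was 0.372 FPKM (DOS.11), and the tumour median of OTX2 was 0. Over all 29 tumours rho was 0.668 for OTX2. EOMES was also above every tumour in both lines (2.44 FPKM for OSCA.78, 4.08 for OSCA.8), where IRS4 was not. DOS.111, the tumour second in IRS4, had OTX2 listed at 0.

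The neighbours of IRS4 in the gene order of the RefSeq dog assembly UU_Cfam_GSD_1.0 were looked at after the IRS4 values were known, and they are given without a test. That assembly is not the build of the data, so only the order of genes was used. NXT2, a nuclear export factor that is the next but one measured coding gene after IRS4, had its 5 highest levels in the 5 libraries with the most IRS4. It stood at 44.05 FPKM in DOS.11, 33.9 in DOS.6M, 31.6 in DOS.116, 28.8 in DOS.6 and 25.2 in DOS.111, against a tumour median of 10.3 and a lowest tumour of 5.34. The next library reached 22.05 FPKM. The order among the 5 differed, since IRS4 was highest in DOS.6M and NXT2 in DOS.11.

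Other genes on either side of IRS4 did not share that set in full. GUCY2F, a guanylate cyclase of photoreceptors that lies directly after IRS4, was highest in DOS.6M (0.195 FPKM) and DOS.6 (0.0903) and at or below 0.0403 elsewhere. The collagen chain COL4A6, the nearest measured gene before IRS4, peaked in DOS.11 (6.62 FPKM), stood at 0.905 FPKM in DOS.111 and 0.777 in DOS.116 (ranks 3 and 4 of 34), and was at 0.123 in DOS.6. Across the tumours COL4A6 gave rho 0.637 and r 0.123 with IRS4, against rho 0.561 and r 0.471 for NXT2. These ranks partly order IRS4 values of a few fragments. ATG4A, an autophagy protease, was at its lowest level of all libraries in DOS.111 (4.67 FPKM) and near the tumour median of 8.11 in DOS.6 (7.43). OSCA.78 and DOS.115, the next in IRS4, had NXT2 at 8.58 and 5.83 FPKM, ranks 21 and 32 of 34.

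**Figure D2:**
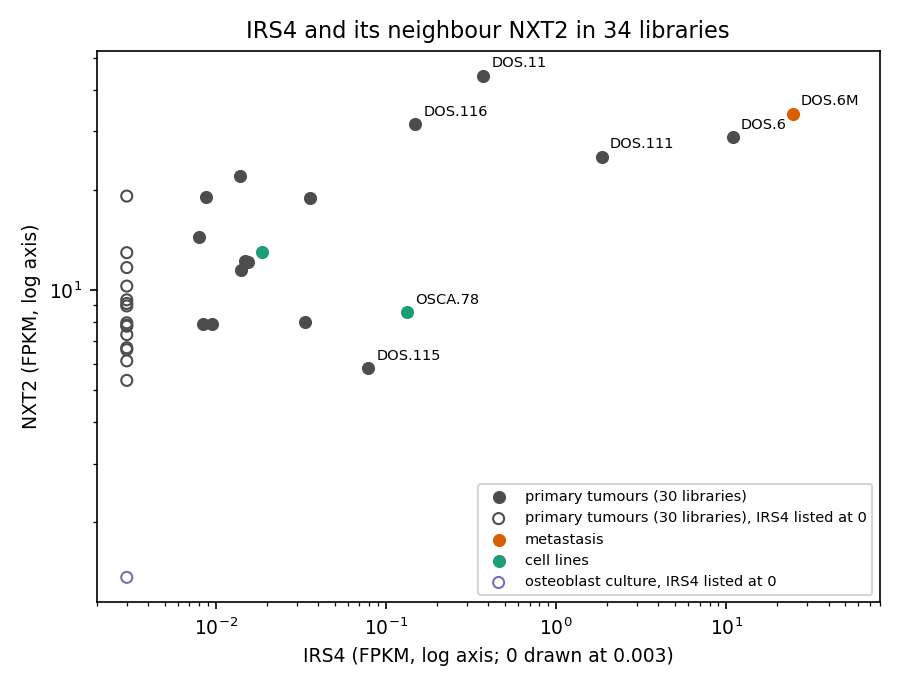
Level of NXT2 against that of IRS4 in FPKM (log axes), 1 point per library, coloured by group; open circles are libraries with IRS4 listed at 0, drawn at a fixed low position. The 5 libraries with the most IRS4 (DOS.6M, DOS.6, DOS.111, DOS.11 and DOS.116) lie at the top, between 25.2 and 44.05 FPKM of NXT2.

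IGFBP6 was measured in every library and varied widely among tumours. Across the 29 primary tumours it ranged from 10.1 FPKM in DOS.100 to 270 in DOS.57, with a median of 63.7 and a mean of 70.8 ± 58.6 (SD, n = 29). At the low end DOS.32 (10.2), DOS.78 (10.9), DOS.111 (16.1) and DOS.116 (16.5) stood near DOS.100, and at the high end DOS.70 (186) and DOS.110 (149) followed DOS.57. The SD of log2(FPKM + 1) was 1.22, rank 804 of 15165 genes, where the median gene had 0.54. DOS.46 and DOS.46.2 gave 72.6 and 69.5 FPKM, 0.06 apart on the log2 scale.

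The metastasis had the lowest IGFBP6 of all libraries, and the osteoblast culture one of the highest FPKM values. DOS.6M stood at 4.89 FPKM, below all 29 tumours and 16.2-fold below DOS.6 (79.3 FPKM). Below every tumour in DOS.6M lay 3.53% of all genes. The bone matrix and fibroblast sums of DOS.6M, given above with IRS4, were low as well. Its endothelial (218 FPKM), macrophage (333) and pericyte (129) sums lay inside the tumour range. Across the tumours IGFBP6 gave r = -0.09 with bone matrix markers and 0.24 with fibroblast markers (adjusted p = 0.938 and 0.749 by permutation). The part of these cells in the IGFBP6 level of DOS.6M was not tested. CNOB stood at 172 FPKM, above 27 of the 29 tumours and below DOS.57 and DOS.70. Its height depended on the scaling. On the log2 scale CNOB lay 1.72 above the tumour mean, 1.04 after upper quartile scaling and 0.735 after quantile scaling. The SD among tumours was 1.22.

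The cell lines fell inside the tumour range, OSCA.8 with 79.8 FPKM and OSCA.78 with 27.5. Their mean differed from that of the tumours by -0.13 on the log2 scale, with OSCA.8 at 0.62 above and OSCA.78 at 0.88 below. Each line was higher than the tumour with its own title number. OSCA.8 was 2.29-fold above DOS.8 (34.9 FPKM) and OSCA.78 2.53-fold above DOS.78 (10.9 FPKM). Whether a line came from the tumour of the same number is not stated in the sources used here.

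Among the 7 IGF binding proteins, IGFBP6 was a minor species on the FPKM scale. Its share of their summed FPKM in the tumours had a median of 3.94% and ran from 0.9997% in DOS.78 to 17.5% in DOS.28. It was first in 0 of 29 tumours and second in 3. IGFBP7, a binding protein of low affinity made by vessels and stroma, led in 22 tumours (median 460 FPKM), IGFBP4 in 6 (median 187) and IGFBP5, which binds bone mineral matrix, in 1 (median 92.8). The median was 83.5 FPKM for IGFBP2, 12.5 for IGFBP3, the main IGF carrier of blood, and 0 for IGFBP1, the binding protein of liver. In DOS.6M IGFBP6 made up 0.389% and IGFBP4 was also below every tumour (40.8 FPKM, lowest tumour 47.8), while IGFBP2, IGFBP3, IGFBP5 and IGFBP7 lay inside the tumour range at 298, 50.7, 199.7 and 657 FPKM. The osteoblast culture was dominated by IGFBP2 (22550 FPKM) and IGFBP7 (3498), with IGFBP3 listed at 0.

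**Figure D3:**
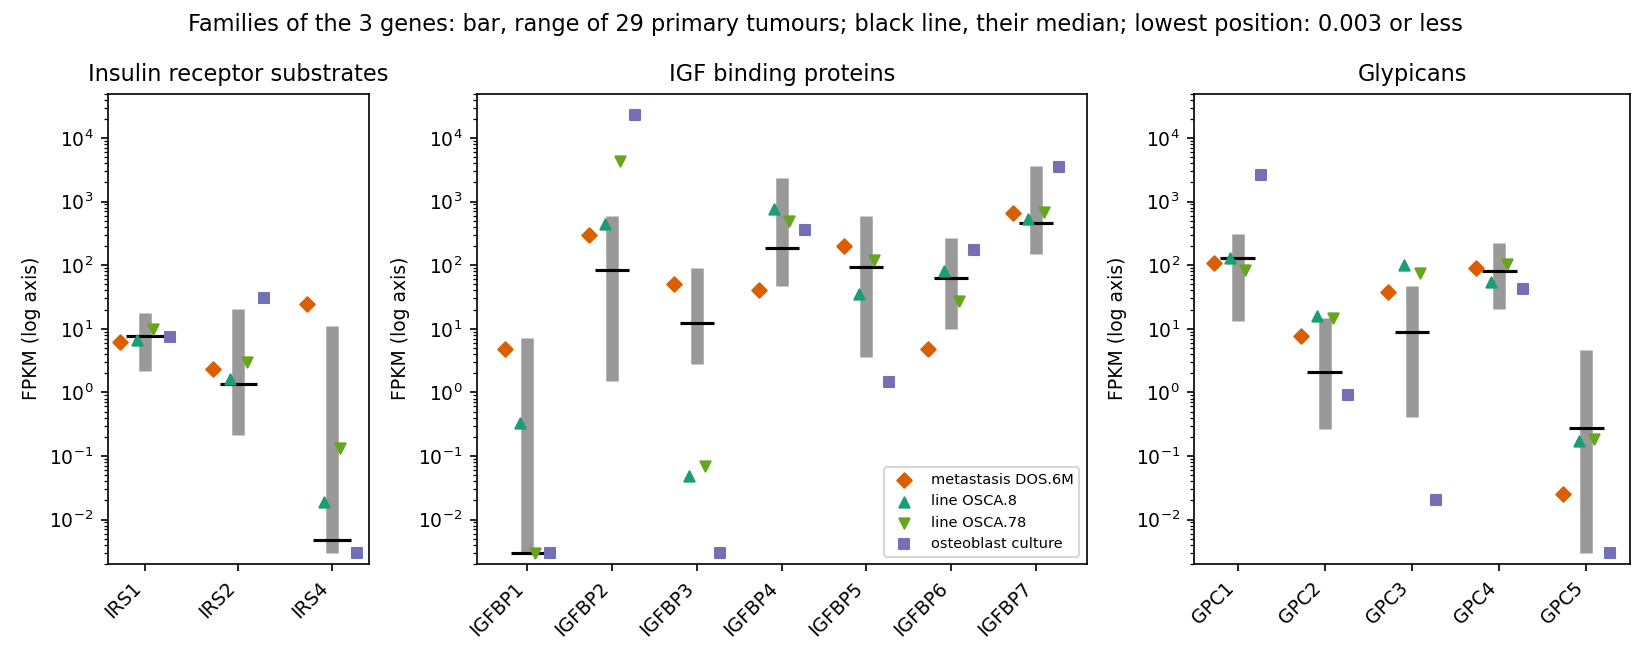
Levels in FPKM (log axes) of the insulin receptor substrates, the IGF binding proteins and the measured glypicans; grey bars span the 29 primary tumours, black lines are their medians, and symbols are the metastasis, the 2 cell lines and the osteoblast culture, with values of 0.003 or less drawn at 0.003. IRS4 in DOS.6M (24.6), GPC3 in both lines (74.7 and 99.4) and IGFBP6 in DOS.6M (4.89) lie outside the bars of their genes.

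Among the genes most like IGFBP6 across the tumours were C11ORF73 (r = 0.782), UCK2 (0.778), C4ORF3 (0.769) and CCDC90B (0.743). UCK2 is a kinase that salvages uridine and cytidine. Leaving out DOS.100 and DOS.32, the 2 tumours lowest in IGFBP6, these 4 values stayed between 0.650 and 0.692. The likeness did not carry over to every other library: C11ORF73 had 0.0247 FPKM in line OSCA.8 and 0.00528 in line OSCA.78, far below its lowest tumour (0.568), where IGFBP6 was inside its tumour range.

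GPC3 had the widest spread of the 3 on the log2 scale. In primary tumours it ran from 0.413 FPKM in DOS.112 to 47.2 in DOS.114, a 114.3-fold range, with a median of 8.85 and a mean of 14.3 ± 14.4 (SD, n = 29). The SD of log2(FPKM + 1) was 1.56, rank 376 of 15165. Close below DOS.114 stood DOS.76 (44.1), DOS.84 (44.06) and DOS.116 (40.5), and at the other end DOS.70 (0.601) and DOS.46 (0.738, with 0.669 in DOS.46.2) were near DOS.112. In all, 26 of 29 tumours reached 1 FPKM and 13 reached 10.

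Both cell lines exceeded every tumour in GPC3, and the osteoblast culture fell below every one. OSCA.8 stood at 99.4 FPKM and OSCA.78 at 74.7, which is 2.10 and 1.58 times the highest tumour. Their mean lay 3.21 above that of the tumours on the log2 scale. Both lines were above all 29 tumours for 4.04% of the genes and below all of them for 7.29%, shares printed here as background, since the gene was chosen with these values known. Against the tumours of the same title number OSCA.8 was 13.5-fold higher (DOS.8 at 7.34 FPKM) and OSCA.78 8.44-fold (DOS.78 at 8.85). CNOB stood at 0.0202 FPKM, 20.5-fold under the lowest tumour. The fold is imprecise, since such a level may be a few fragments. In CNOB 1 fragment of IRS4 was worth 0.01265 FPKM, and the worth of a GPC3 fragment was not derived. That culture was below all tumours for 19.5% of the genes. The metastasis was at 37.3 FPKM, above 25 of 29 tumours and 2.42-fold above DOS.6 (15.5). Ordered by level, the lines came first, then DOS.6M within the upper part of the tumour range, and the osteoblast culture last.

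Several marker lists lay outside their tumour range in the lines, DOS.6M or CNOB. The macrophage sum lay below every tumour in the lines and in CNOB, whose GPC3 levels are given above. The 8 measured bone matrix markers summed to 3474 FPKM for OSCA.78, 6183 for OSCA.8 and 4377 for DOS.6M, all below the lowest tumour (6862), and to 16090 for CNOB, inside the tumour range. The 9 macrophage markers summed to 2.04 FPKM for OSCA.78, 1.55 for OSCA.8 and 24.8 for CNOB, against at least 81.7 in the tumours, and 23.2 of the CNOB sum was CD68, a lysosomal protein, which lay inside its tumour range (5.67 to 672). The 7 cell cycle genes summed to 587 FPKM for OSCA.78, above every tumour, 295 for OSCA.8, inside their range, and 10.7 for CNOB, below every tumour (63.5 to 572). Across the tumours GPC3 and the cell cycle genes gave r = -0.09 (permutation p = 0.646, adjusted 0.938) and rho -0.129 (permutation p = 0.501, adjusted 0.952). With bone matrix, macrophage and skeletal muscle markers GPC3 gave r = -0.004, 0.03 and 0.22 (adjusted p = 0.986, 0.938 and 0.749 by permutation). The 5 skeletal muscle markers summed to 710 FPKM for CNOB, above every tumour, of which the actin ACTA1 made up 708, while TNNT3 and MYBPC1 were listed at 0 there and CKM (0.0979) and DMD (2.15) lay inside their tumour ranges. The part of these in the GPC3 level was not tested.

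Among glypicans, GPC3 was a lesser member in tumours and a major one in the lines. GPC1 led in 24 of 29 tumours (median 128 FPKM, 13.2 to 313) and GPC4, whose gene lies next to GPC3, in the other 5 (median 79.6, 20.4 to 220). The share of GPC3 in the summed FPKM of the 5 measured glypicans had a median of 4.90% in tumours (0.146% to 25.7%) and was 33.3% in OSCA.8, 27.01% in OSCA.78 and 15.5% in DOS.6M. In CNOB GPC1 stood at 2609 FPKM, above every tumour, with GPC4 at 41.9. Between lines and tumours, GPC4 (limma log2 difference 0.12, adjusted p = 0.915), GPC1 (-0.21, 0.868) and GPC5 (-0.39, 0.594) did not pass the test. GPC2, a glypican of the developing nervous system, had 14.5 and 16.04 FPKM in the lines against a tumour median of 2.13, a rise of 2.28 ± 0.69 (SE, limma adjusted p = 0.0217). With the title number fitted as a block the rise was 0.46 (limma adjusted p = 0.523). The highest tumour was DOS.78 at 14.8 FPKM, just above OSCA.78, the line of the same title number. With 1 line left and no block the difference kept its size, at 2.35 without OSCA.78 and 2.21 without OSCA.8, and the call ended.

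The other neighbours of GPC3 in the gene order differed among themselves. CCDC160, directly on the other side, was at 16.9 FPKM in OSCA.8, above every tumour (highest 7.51), and at 2.98 in OSCA.78, inside their range. HS6ST2, a heparan sulfate sulfotransferase on the far side of GPC4, was at 4.09 FPKM in OSCA.78 and a tumour median of 0.639. PHF6, a chromatin protein beyond CCDC160, had 9.62 FPKM in line OSCA.78 and 15.9 in line OSCA.8, inside the tumour range of 4.51 to 19.5. The genes most like GPC3 across the tumours were MIER3 (r = 0.704), NPEPPS (0.668), PGM5 (0.655), EPHX1 (0.631) and WDR44 (0.629). NPEPPS is a cytosolic aminopeptidase and EPHX1 a microsomal epoxide hydrolase. Only 10 of 15164 genes exceeded an r of 0.6 with GPC3, against 131 for IGFBP6. MIER3 did not follow GPC3 into the lines, at 2.15 and 3.90 FPKM against a tumour median of 4.24. PGM5 was at 84.1 FPKM in OSCA.78, above its highest tumour (38.7). In OSCA.8 it was at 37.8 FPKM, inside the tumour range, whose median was 7.04. NPEPPS, EPHX1 and WDR44 lay inside their tumour ranges in both lines.

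Across the 29 tumours the 3 genes were not called as correlated with each other. For IGFBP6 and GPC3 Pearson's r was -0.340 (permutation p = 0.0727, adjusted 0.582 over 33 relations) and Spearman's rho -0.335 (permutation p = 0.0764, adjusted 0.351), and r was -0.309 without DOS.100 and DOS.32. The 2 ends of each gene are given as values only, in sets chosen after the values were seen. The 6 tumours lowest in GPC3 (0.413 to 1.57 FPKM) had IGFBP6 between 58.9 and 186 FPKM, while the 5 tumours lowest in IGFBP6 (10.1 to 16.5) had GPC3 between 8.34 and 40.5.

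**Figure D4:**
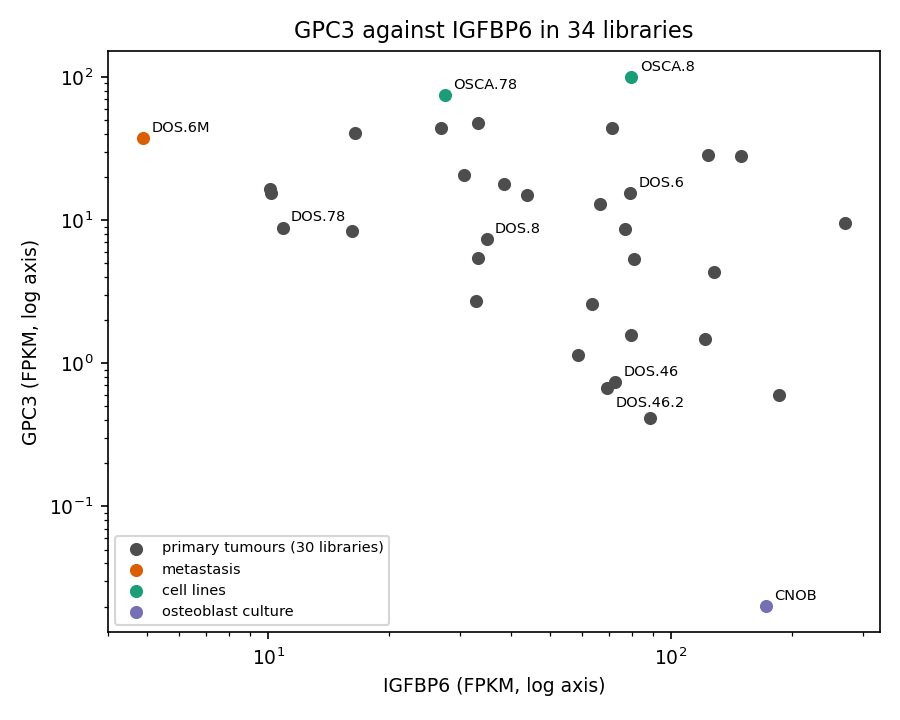
Level of GPC3 against that of IGFBP6 in FPKM (log axes), 1 point per library, coloured by group, with libraries of shared title numbers and the osteoblast culture named. DOS.6M lies at the left edge (IGFBP6 4.89) and CNOB at the lower right (GPC3 0.0202).

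For IRS4 the ranks and the values gave different pictures. With IGFBP6 rho was -0.483 (permutation p = 0.00845, adjusted 0.279) and r -0.04 (permutation p = 0.862, adjusted 0.938), and r was -0.23 without DOS.6 and DOS.111. With GPC3 rho was 0.356 (permutation p = 0.0596, adjusted 0.351) and r 0.122 (permutation p = 0.572, adjusted 0.938), 0.245 without the same 2 tumours. Since 14 of the 29 tumours were listed at 0 and most others held few fragments, these ranks are partly those of single fragments.

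The family of 33 relations also held IGF2, the ligand that IGFBP6 prefers, and the mean levels of 9 lists of marker genes. None passed, by Pearson's r or Spearman's rho, with 2 at an unadjusted permutation p under 0.05 by Pearson's r and 4 by Spearman's rho, one of the 4 being IRS4 with IGFBP6. By Pearson's r these were IGFBP6 with macrophage markers (r = 0.442, permutation p = 0.0165, adjusted 0.546; rho 0.261, permutation p = 0.172, adjusted 0.566), which dropped to r = 0.201 without DOS.100 and DOS.32, and IGFBP6 with cell cycle genes (r = -0.383, permutation p = 0.0404, adjusted 0.582; rho -0.430, permutation p = 0.0204, adjusted 0.337), where r was -0.500 without them. By Spearman's rho they also included IGFBP6 with endothelial markers (rho 0.386, permutation p = 0.0403, adjusted 0.351; r = 0.306, permutation p = 0.106, adjusted 0.582) and with smooth muscle and pericyte markers (rho 0.372, permutation p = 0.0474, adjusted 0.351; r = 0.361, permutation p = 0.0557, adjusted 0.582), with r at 0.240 and 0.257 without DOS.100 and DOS.32. IGF2 gave r = -0.246 with IGFBP6 (permutation p = 0.200, adjusted 0.749; rho -0.173, permutation p = 0.372, adjusted 0.909), 0.216 with IRS4 and 0.02 with GPC3 (adjusted 0.749 and 0.941 by permutation).

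The other genes of the pathway were compared between the lines and the tumours, 2 against 29, in limma across all 15165 genes (two-sided, Benjamini-Hochberg adjusted p below 0.05). Of 65 measured pathway genes 7 passed, 4 higher and 3 lower in the lines. That is 10.8% against 16.4% of all genes (8.49% higher and 7.92% lower), so the share in the pathway was below that of all genes. Over all genes 51.7% of the calls were higher in the lines, a split that was 40.6% with a pseudocount of 0.1 and 40.9% after upper quartile scaling. The median log2 difference was 0.14 in the pathway and -0.05 over all genes. With the title number fitted as a block, 0 of the 65 pathway genes and 0 of all genes passed. IGF1, IGF1R and IGF2R were not found by symbol and are not analysed here. Without OSCA.78 0 of the 65 passed, and without OSCA.8 3 did (IGFBP2, IGFBP3 and JAK2).

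Among ligands and receptors no measured gene passed. IGF2 had 10.3 FPKM in line OSCA.8 and 9.35 in line OSCA.78, against a tumour median of 19.2 (2.01 to 144; log2 difference -1.15 ± 0.97 SE, limma adjusted p = 0.446). CNOB, at 0.362 FPKM of IGF2, lay below every tumour. The insulin receptor INSR (0.25, adjusted p = 0.791) and its orphan relative INSRR (-0.05, adjusted p = 0.944) did not pass by limma. INSRR was above every tumour in DOS.6M, at 5.56 FPKM against 4.74 in the highest.

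Binding proteins gave the largest differences of the pathway. IGFBP2 rose by 4.50 ± 1.39 (SE, limma adjusted p = 0.0255). OSCA.78 held 4333 FPKM and OSCA.8 447, the latter inside the tumour range (1.54 to 587). Without OSCA.78 its difference was 2.86 (adjusted p = 0.590). IGFBP3 fell to 0.0698 and 0.0491 FPKM in the lines, against 2.79 in the lowest tumour. With a pseudocount of 0.1 its log2 difference was -6.29 (limma adjusted p = 1.84e-06), and that of IGFBP2 was 4.56. With the pseudocount of 1 of the main fit the IGFBP3 difference was -3.69 ± 0.78 (SE, limma adjusted p = 0.00134). Without OSCA.78 the adjusted p was 0.0694 at -3.70. IGFBP4 (1.46, adjusted p = 0.251), IGFBP5 (-0.07, 0.976), IGFBP7 (0.15, 0.920), IGFBP1 (0.02, 0.982), the IGFBP-like gene IGFBPL1 (0.93, 0.155) and the acid-labile subunit IGFALS (-0.10, 0.925) did not pass. HTRA1, a secreted serine protease that cleaves IGF binding proteins, was higher in the lines by 1.09 ± 0.35 (SE, limma adjusted p = 0.0311), and the difference was 0.90 without OSCA.78 (adjusted p = 0.461) and 1.28 without OSCA.8 (0.0806), so that the call ended with 1 line left while the size stayed alike.

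Downstream of the receptors few genes passed. None of the 11 adaptors did, among which SHC1 was the most abundant (-0.50, limma adjusted p = 0.428). Of 20 genes of PI3-kinase, AKT and mTOR signalling, the leukocyte catalytic subunit PIK3CD was lower (-1.37, limma adjusted p = 0.0214) and the regulatory subunit PIK3R3 higher (1.73 ± 0.60 SE, limma adjusted p = 0.0445). With 1 line left the PIK3CD difference was the same size and did not pass (-1.38, adjusted p = 0.279 without OSCA.78, and -1.36, 0.118 without OSCA.8). PIK3R3 missed the threshold with no filter on low values, under both scalings and with DOS.46 and DOS.46.2 kept apart (0.0542 to 0.0607), and with 1 line left (1.99, adjusted p = 0.288 without OSCA.78, and 1.48, 0.252 without OSCA.8). JAK2, the kinase of the growth hormone receptor, was lower (-1.34, limma adjusted p = 0.0121; leaving out OSCA.78 gave -0.57 and 0.692). None of the 7 hedgehog genes, with the signal transducer SMO the most abundant (0.30, adjusted p = 0.759), and none of the 3 IGF2 mRNA binding proteins (IGF2BP1 at 2.43, adjusted p = 0.262) passed by limma.

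**Figure D5:**
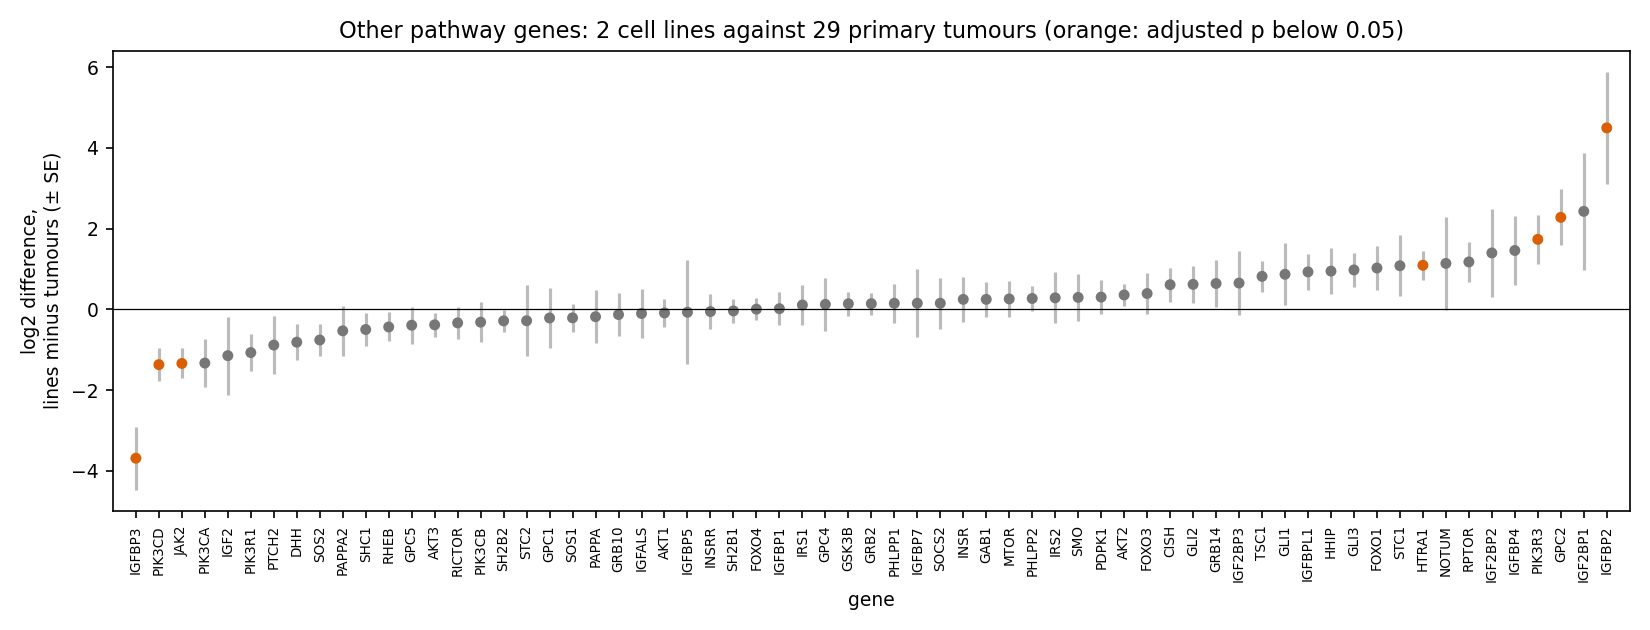
Log2 difference of mean log2(FPKM + 1) between the 2 cell lines and the 29 primary tumours for each of the 65 pathway genes other than IRS4, IGFBP6 and GPC3, ordered by size; bars are limma standard errors and orange points have an adjusted p below 0.05. IGFBP3 (-3.69) and IGFBP2 (4.50) mark the ends, and 58 of the 65 genes did not pass.

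In the single libraries, the osteoblast culture lay above every tumour for 12 of the 65 pathway genes and below every tumour for 9, against 22% and 19.5% of all genes. Those above included IGFBP2, HTRA1, AKT1, GPC1 and PAPPA, the protease that cleaves IGFBP4, at 96.8 FPKM (highest tumour 20.1). The counts for CNOB are on the deposited FPKM scale and were not repeated under other scalings. The height of IGFBP6 in CNOB above the tumour mean was 1.72 on the log2 scale. It was 1.04 after upper quartile scaling and 0.735 after quantile scaling. The metastasis lay above for 2 (INSRR and CISH) and below for 5 (IGFBP4, HTRA1, SHC1, AKT2 and JAK2), against 5% and 3.53% of all genes. HTRA1 was at 126 FPKM in DOS.6M and between 349 and 1295 FPKM in the tumours.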

How the data were processed

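RNA sequencing libraries of total RNA from dog tumours and cultures were analysed from 1 table of deposited FPKM values, made by the authors. The table names no unit; FPKM is read from the submitters' processing notes, which list FastQC 0.11.2, TopHat2 2.0.13, Cufflinks 2.2.1 and canFam3. Counts are not in it, so depth is unknown and no count model was used. The columns were matched to samples by title.

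Levels were taken as log2(FPKM + 1) after a filter of at least 1 FPKM in at least 2 libraries (15165 of 23988 rows; 9653 rows carry only an Ensembl ID). The cell lines were compared with the tumours in limma 3.58.1 (R 4.3.3) with trend and robust settings, two-sided, adjusted by Benjamini-Hochberg over all genes, threshold 0.05. The script was tested on simulated data. Nothing says that samples of a group came from separate animals, so p-values measure the spread between these samples. Correlations used 100000 permutations (scipy 1.17.1); IGF1, IGF1R and IGF2R were not found by symbol, so the family held 33 relations. The sources used here do not state how reads shared between similar genes were assigned, or whether strand was used.

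The 3 genes and all lists were chosen with earlier results of these data known. Named genes were every measured ligand, receptor, binding protein, insulin receptor substrate and glypican, the called genes with the 3 largest changes per direction in each other list (the most abundant gene where none was called), and the 5 genes most like each of IRS4, IGFBP6 and GPC3. Of the latter, 1 gene each for IRS4 and IGFBP6 is not reported here. Neighbouring genes, and a fit without DOS.6, were added after seeing the data. Alternatives were a pseudocount of 0.1, no filter, upper quartile and quantile scaling, DOS.46 and DOS.46.2 kept apart, each line left out and the title number as a block.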

Additional observations from a re-analysis of the deposited data

How the results depend on the processing

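Of the alternatives run, none reversed a called result. In limma, the count of genes differing between lines and tumours was 2489 and ran from 344 to 1998 when 1 line was left out (344 without OSCA.78), and that of pathway genes, 7, ran from 0 to 3 (0 without OSCA.78). With 1 line left, that line is assumed to vary like the tumours. Only 2 title numbers (8 and 78) pair a line with a tumour and the labels do not call them the same dog; the differences OSCA.8 minus OSCA.78 and DOS.8 minus DOS.78 correlated at r = 0.269 across genes. With the number as a replicate block, limma called 0 genes (3164 of 15165 at an unadjusted p under 0.05) and 0 pathway genes (12 of 65 unadjusted), and the IGFBP6 difference was 1.22 against -0.13. The 7 called pathway genes kept their direction in the block, with adjusted p from 0.119 to 0.523; GPC2 moved most, to 0.46 against 2.28. With a pseudocount of 0.1 the SD of IRS4 among tumours was 1.49 against 0.71, IRS4 in DOS.6M lay 7.35 above the tumour mean against 4.47, and GPC3 in CNOB lay at -5.99 against -3.21. Without DOS.6 the SD of IRS4 was 0.29. The small IRS4 difference of the lines, -0.11, was 0.13 with the pseudocount of 0.1, 0.12 after quantile scaling, 0.08 with the block and 0.01 without DOS.6. GPC2 no longer passed with the pseudocount of 0.1 (limma adjusted p = 0.05, not below the threshold). Levels of a few fragments of IRS4 are limited by depth.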

Other observations

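The genes beside IGFBP6 in the gene order of the RefSeq assembly, looked at after the values were known, were also uneven in the osteoblast culture. SPRYD3, directly before IGFBP6, was at 147 FPKM in CNOB, above every tumour (highest 38.0), where IGFBP6 stood at 172. SOAT2, a sterol acyltransferase directly after it, was at 0.0225 FPKM in CNOB and 0.0576 in DOS.6M, below and inside the tumour range of 0.0254 to 0.578. In DOS.6M, where IGFBP6 was lowest, SPRYD3 (14.2 FPKM) lay inside its tumour range, and ZNF740, a zinc finger gene, was at 8.54, below its lowest tumour (9.49).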
